A study of Homo sapiens with 3 samples.

Results

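LIN28A, LIN28B, IGF2BP1, IGF2BP2, IGF2BP3 and HMGA2 form the oncofetal arm of the let-7 pathway, and were followed here through 3 RNA sequencing libraries of HEK293 cells. The 6 genes were taken by name from the 26485 gene names of the deposited count tables. The rule used no measured value, but the genes were chosen with earlier results of these data known. HEK293 is an established human line made from embryonic kidney cells transformed with adenovirus DNA. The cells were grown in DMEM with 10% fetal calf serum and were not treated, and the 3 libraries are replicates 1, 2 and 3 of that single condition. The labels do not say that they came from separate cultures, and the spreads and p-values therefore measure differences between samples that may be technical.

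The genes belong to a circuit that sets developmental timing in animals. LIN28A and LIN28B are RNA-binding proteins with a cold-shock domain and zinc knuckles that hold the terminal loop of let-7 precursors and block their maturation, in part by recruiting terminal uridylyltransferases. Mature let-7 in turn represses LIN28A, LIN28B, the IGF2BP genes and HMGA2 through sites in their 3' untranslated regions (UTRs). The IGF2BP proteins carry RNA recognition motifs and KH domains and protect client mRNAs from decay, and HMGA2 is a chromatin protein with AT-hooks that bends DNA. Most of these genes are active in the embryo, are shut off in most adult tissues and return in tumours, and IGF2BP2 differs in staying on in many adult tissues.

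The sequences at the centre of the circuit are shown first. Mature let-7 pairs with its targets through the seed, bases 2 to 8, given in capitals, and all 9 family members in the RefSeq-derived table (build GRCh38.p14) have the same one. The following 4 illustrate how the family varies outside it.
hsa-let-7a-5p: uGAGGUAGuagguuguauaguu
hsa-let-7d-5p: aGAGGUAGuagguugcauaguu
hsa-let-7g-5p: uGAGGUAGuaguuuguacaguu
hsa-miR-98-5p: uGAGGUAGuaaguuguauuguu

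LIN28 proteins are known to contact GGAG in the loop of let-7 precursors. This motif was searched on the hairpin strand alone, between the annotated mature arms. Of the 11 let-7 and MIR98 hairpins with both arms in the table, 8 held it, against 8.12% of 739 human hairpins with both arms. MIRLET7A3, MIRLET7B and MIR98 had no GGAG there. MIRLET7G (chr3:52268278-52268361, minus strand), with the motif in capitals, and MIRLET7A3 (chr22:46112749-46112822, plus strand), without it, show the contrast.
MIRLET7G: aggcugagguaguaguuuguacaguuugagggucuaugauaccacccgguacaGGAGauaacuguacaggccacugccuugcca
MIRLET7A3: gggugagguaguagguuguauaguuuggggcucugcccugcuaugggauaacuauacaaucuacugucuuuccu

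The complement of the let-7 seed, CTACCTC, was then searched on the transcript strand of the 3' UTR of 1 main transcript per gene (GENCODE 29, GRCh38). All 6 genes held it, compared with 1625 of 18870 3' UTRs of protein-coding genes (8.61%). LIN28B, IGF2BP1 and HMGA2 each had 4 matches, a number reached by 12 of the 18870. LIN28A, IGF2BP2 and IGF2BP3 had 1 match each. Long 3' UTRs hold more matches: among genes with a 3' UTR of like length, the share with a match ran from 11.7% for IGF2BP2 to 30.0% for IGF2BP1. The genes were grouped as a let-7 axis, so these matches are a description of the group and not independent evidence for it. The match nearest the stop codon of each gene is printed with 14 bases before it and 1 after it, the seed match in capitals. In all 6 genes this first match was followed by an A, the base that makes the longer canonical site. Of all 4 matches, 2 in LIN28B, 3 in IGF2BP1 and 1 in HMGA2 were followed by an A. The share of matches followed by an A over all 3' UTRs was not computed.
LIN28A, chr1:26427363-26427369: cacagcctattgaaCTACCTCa
LIN28B, chr6:105078827-105078833: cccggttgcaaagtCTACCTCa
IGF2BP1, chr17:49051076-49051082: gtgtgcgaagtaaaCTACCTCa
IGF2BP2, chr3:185644221-185644227: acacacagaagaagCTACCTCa
IGF2BP3, chr7:23311796-23311802: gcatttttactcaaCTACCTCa
HMGA2, chr12:65963313-65963319: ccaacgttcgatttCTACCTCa

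**Figure D1:**
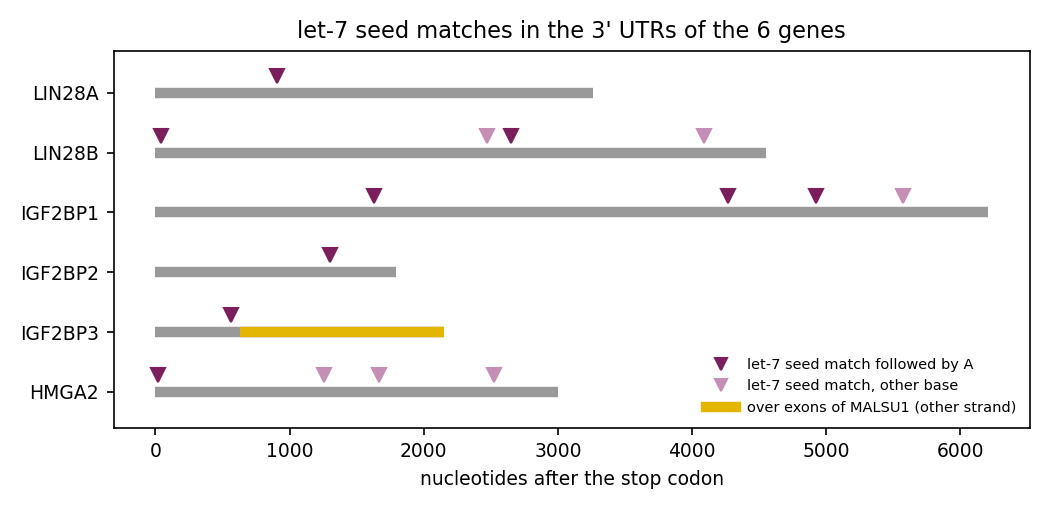
Bars show the 3' UTR of the main transcript of each gene in nucleotides after the stop codon, and triangles show let-7 seed matches, dark where an A follows. LIN28B, IGF2BP1 and HMGA2 each carry 4 matches and the others 1; the yellow stretch is the 1521 nucleotides of the IGF2BP3 3' UTR that lie over MALSU1 exons on the other strand.

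Within each gene the matches were spread along the 3' UTR. In HMGA2, the first lay 21 nucleotides after the stop codon and the last at 2521, in a 3' UTR of 3003 nucleotides. In LIN28B the first was at nucleotide 44 and the last at 4092 of 4549. IGF2BP1, with the longest 3' UTR of the 6 at 6206 nucleotides, had none before nucleotide 1632. The single matches were at 905 of 3264 in LIN28A, 1304 of 1792 in IGF2BP2 and 560 of 2153 in IGF2BP3.

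The libraries behind the counts were shallow at the level of genes. Gene-assigned totals were 289241 to 483114 per library, or 1.76% to 2.48% of all records, while 90.6% to 91.5% of records fell in no annotated feature. A single count equalled 2.29 to 3.30 CPM (counts scaled to library size, with the TMM correction for composition). A count of 0 allows up to 3 counts, which is 6.86 to 9.89 CPM by library, and such limits and the intervals below cover counting error alone. TSIX alone took 17.1% to 28.5% of gene-assigned counts, most in replicate 2, which stood apart from the others: pairs that include it had a biological coefficient of variation of 0.308 (with replicate 1) and 0.294 (with replicate 3), and the remaining pair 0.175. Markers of embryonic kidney were sparse, with a count for 6 of 10 genes; HOXA11 had 24, 8 and 11 counts and PAX2, LHX1 and SIX2 had none. None of 5 fibroblast markers had a count, and FGB was the single one of 4 liver markers with any. Among blood markers, CD68 had 18, 16 and 9 counts.

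Each of the 6 genes had at least 1 count in every library, as did 29.2% of all gene names, but their levels differed widely. LIN28A and IGF2BP3 were well above the other 4, and IGF2BP2 was close to the limit of detection. The median of the 6 mean levels was 26.1 CPM against 1.10 CPM over all names. In bulk RNA, fewer cells with a transcript and less transcript per cell cannot be told apart. The tables do not record strand, and the sources used here do not say whether or how counting used it. A count therefore stands under a gene's name, may come from either strand of its exons, and need not measure that gene's mRNA. Records in no annotated feature were 90.6% to 91.5% and ambiguous ones 0.0183% to 0.0187%, and ACTB, the beta-actin gene, had 1, 0 and 1 counts. Whether counts were taken from the strand opposite the transcripts was not tested.

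LIN28A (ENSG00000131914.10, chr1:26410778-26429722, plus strand), known for its role in pluripotent cells, received 49, 49 and 19 counts in replicates 1, 2 and 3. This was 112, 113 and 62.6 CPM, with a mean of 95.9 ± 28.8 CPM (SD, n = 3). Replicates 1 and 2 were alike and replicate 3 was lower, and its exact 95% Poisson interval of 37.7 to 97.8 CPM overlapped the intervals of the other libraries, which began at 82.9 and 83.6 CPM. No gene lies opposite LIN28A in the annotation. Of the 12765 names with no gene opposite, 3.13% reached 10 counts in every library as LIN28A did, compared with 9.68% of all names.

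LIN28B (ENSG00000187772.7, chr6:104936616-105083332, plus strand), the paralog found in fetal liver and many tumours, received 10, 7 and 2 counts. These equalled 22.9, 16.1 and 6.59 CPM, with a mean of 15.2 ± 8.17 CPM (SD, n = 3). All 3 intervals overlapped, and that of replicate 3 ran from 0.798 to 23.8 CPM. Per kilobase of merged exon, LIN28A exceeded LIN28B in 3 of 3 libraries, with log2 ratios of 2.85, 3.35 and 3.74 and a mean of 3.31 ± 0.44 (SD, n = 3). The difference was larger than the spread between libraries. An exact two-sided sign-flip permutation test on 3 libraries cannot give a p below 0.25, and the ratio is given without a call. It compares counts under the 2 names and need not be the ratio of their mRNAs.

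IGF2BP3 (ENSG00000136231.13, chr7:23310209-23470467, minus strand), the family member most used as a tumour marker, had the most counts of the 6, with 51, 74 and 25. Its levels were 117, 171 and 82.4 CPM, with a mean of 123 ± 44.5 CPM (SD, n = 3). Replicate 2 was highest and replicate 3 lowest, and their 95% Poisson intervals, 134 to 214 and 53.3 to 122 CPM, did not overlap.

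IGF2BP1 (ENSG00000159217.9, chr17:48997412-49055650, plus strand), which binds the coding region determinant of MYC mRNA, received 25, 4 and 5 counts. At 57.1, 9.22 and 16.5 CPM it had the largest ratio of highest to lowest library among the 6, 6.20, and a mean of 27.6 ± 25.8 CPM (SD, n = 3). Replicate 1 alone was high, with an interval of 37.0 to 84.4 CPM that began just below the upper bound of 38.5 CPM in replicate 3 and above the 23.6 CPM of replicate 2.

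IGF2BP2 (ENSG00000073792.15, chr3:185643739-185825056, minus strand), linked to metabolism and type 2 diabetes risk, received 1, 1 and 3 counts. These equalled 2.29, 2.31 and 9.89 CPM, and no difference between libraries was detectable at this depth. IGF2BP3 was above IGF2BP1 and above IGF2BP2 in 3 of 3 libraries per kilobase, with mean log2 ratios of 2.58 ± 1.57 and 3.93 ± 1.56 (SD, n = 3 each). Between IGF2BP1 and IGF2BP2 the order depended on the library: the log2 ratio per kilobase was 3.43, 0.85 and -0.24 in replicates 1, 2 and 3, with a mean of 1.35 ± 1.88 (SD, n = 3), smaller than its spread, and 0.30 without replicate 1.

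HMGA2 (ENSG00000149948.13, chr12:65824131-65966295, plus strand) received 16, 9 and 5 counts, or 36.6, 20.7 and 16.5 CPM, with a mean of 24.6 ± 10.6 CPM (SD, n = 3). The 3 intervals overlapped. Replicate 1 was also the highest library for LIN28B and IGF2BP1, and replicate 3 the lowest for LIN28A, LIN28B, IGF2BP3 and HMGA2; over all 7738 names with a count in every library, replicate 3 was lowest in 33.7% and replicate 1 highest in 35.2%. IGF2BP2 went the other way, with its highest value in replicate 3.

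**Figure D2:**
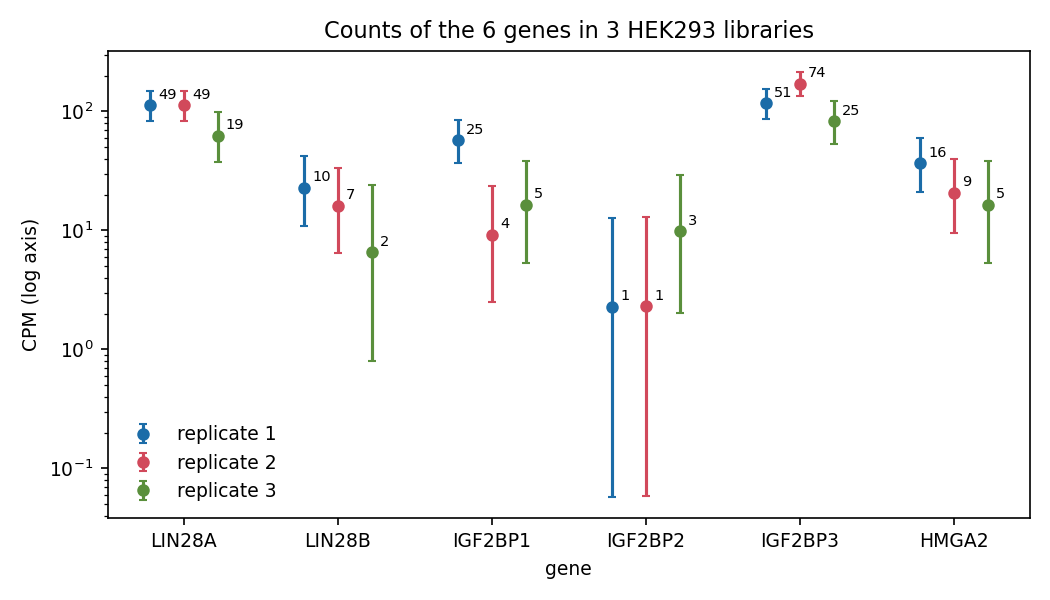
Points show CPM on a log axis for each gene in replicates 1, 2 and 3, labelled with the raw count, and bars are exact 95% Poisson intervals of the count. LIN28A and IGF2BP3 lie between 62.6 and 171 CPM, above every value of the other 4 genes.

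Levels of different genes were compared per kilobase (kb) of merged exon, since longer transcripts collect more reads. LIN28A was then first at 23.9 ± 7.18 CPM per kb, followed by IGF2BP3 at 14.5 ± 5.22, IGF2BP1 at 3.03 ± 2.84, LIN28B at 2.53 ± 1.36, HMGA2 at 1.60 ± 0.69 and IGF2BP2 at 1.02 ± 0.93 CPM per kb (SD, n = 3 each). The order, which is one of counts and need not be that of mRNA levels, falls into 2 tiers. The lowest values of LIN28A and IGF2BP3 were above the highest value of the next gene, IGF2BP1, whereas the ranges of LIN28A and IGF2BP3 overlapped each other and so did those of every pair of neighbours from IGF2BP1 down. The place of IGF2BP1 rested on replicate 1: without it, IGF2BP1 was at 1.37 CPM per kb and LIN28B at 1.84. The level of IGF2BP2 rested on replicate 3, without which it was at 0.474 CPM per kb. Among the 14021 names with a count and a known exon length, LIN28A lay at the 89.9th percentile and IGF2BP3 at the 85.2nd. IGF2BP2 was at the 36.2nd, and the other 3 were between the 47.0th and the 61.6th.

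The place of several genes depended on the length used. Annotated exons of HMGA2 add up to 15.4 kb, its longest transcript is 8.09 kb, and its coding sequence, merged over transcripts, is 0.792 kb. Per kb of the longest transcript IGF2BP3 was first at 28.98 ± 10.5 CPM, with LIN28A at 23.9 ± 7.18, and their ranges overlapped. Per kb of coding sequence HMGA2, at 31.1 ± 13.4 CPM, came directly after IGF2BP3, and IGF2BP1, at 16.0 ± 14.9 (SD, n = 3 each), fell behind LIN28B. IGF2BP2 was last under each length, and LIN28A and IGF2BP3 held the top 2 places, in either order.

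**Figure D3:**
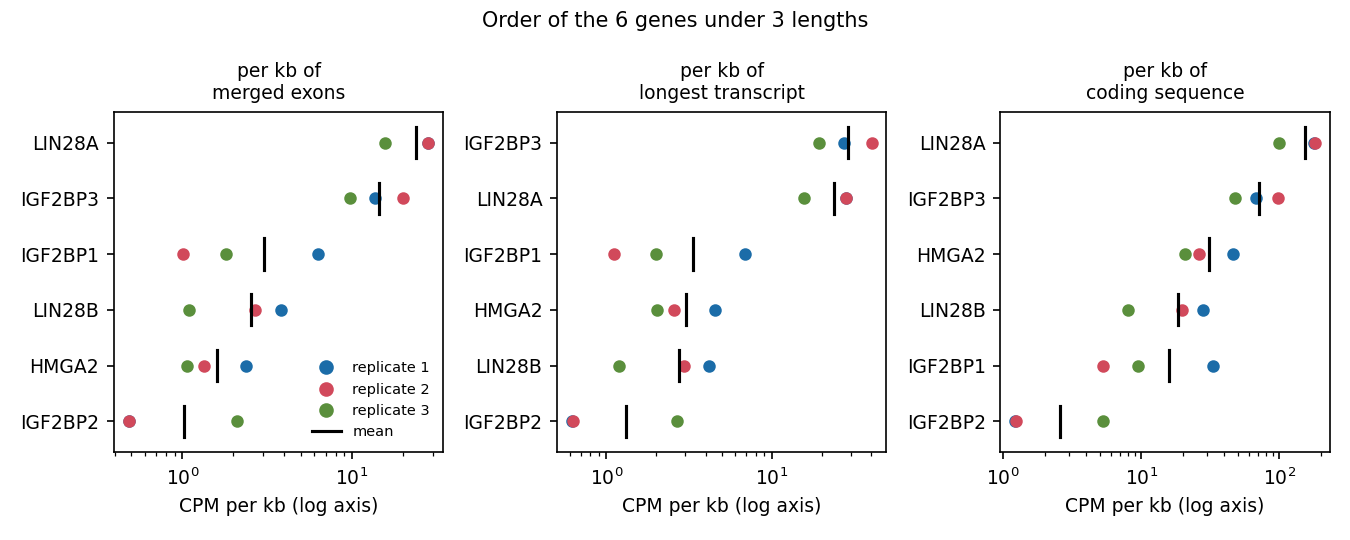
Each panel ranks the 6 genes by mean CPM per kb on a log axis, using merged exons, the longest transcript or the coding sequence as the length. Points are the 3 libraries and black ticks the means; LIN28A and IGF2BP3 hold the first 2 places in each panel and IGF2BP2 the last.

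Variation between libraries was tested for genes reaching 10 counts in each of the 3, a minimum that LIN28A and IGF2BP3 passed. Of the 2564 genes tested, 1175 (45.8%) varied beyond counting noise at an adjusted p under 0.05 in edgeR's Poisson fit with Benjamini-Hochberg adjustment. IGF2BP3 was among them, with an adjusted p of 0.00914 by edgeR's fit. Its highest library, replicate 2, was 2.07 times its lowest, replicate 3; among the tested genes replicate 2 was highest in 40.2% and replicate 3 lowest in 26.3%. Without replicate 2 its adjusted p by the same fit was 0.397, and with libraries scaled by total counts in place of TMM it was 0.0686. LIN28A did not pass, with an adjusted p of 0.0875 by edgeR's fit and an unadjusted p of 0.0451. So 1 of the 2 tested genes was called, where 45.8% of all tested genes were.

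The other 4 genes fell below the minimum because of low counts. With no minimum, 14482 genes were tested and 20.1% were called, and IGF2BP1 had an adjusted p of 0.00119 in edgeR's fit, from its 25 counts in replicate 1 against 4 and 5. LIN28B, HMGA2 and IGF2BP2 had adjusted p-values of 0.328, 0.319 and 0.412 by that fit. IGF2BP3 stayed under the threshold at 0.0212, and LIN28A was at 0.139.

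**Figure D4:**
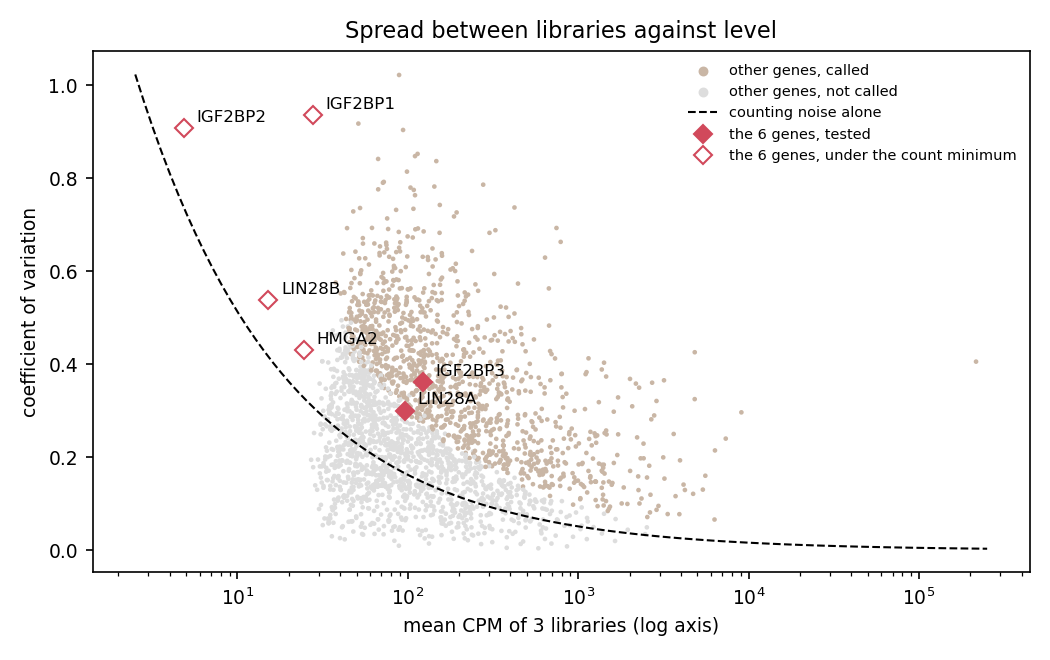
Coefficient of variation over 3 libraries against mean CPM (log axis) for the 2564 tested genes and the 6 genes of interest, with the dashed line for counting noise alone. IGF2BP3 was called and LIN28A was not, and the 4 open diamonds had under 10 counts in a library.

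The genes nearest in pattern were found by Euclidean distance in log2(CPM + 1) over the 3 libraries, among the 2563 other genes above the minimum. Those nearest IGF2BP3 were FLJ12825 (49, 72 and 25 counts, distance 0.07), PTPRG-AS1 (48, 73 and 26, distance 0.10) and WDR33 (55, 72 and 24, distance 0.13). For LIN28A they were LOC100505736 (55, 47 and 20 counts, distance 0.19), SIRT5 (45, 47 and 17, distance 0.21) and ZHX3 (45, 45 and 21, distance 0.22). With 3 libraries and so many candidates, close neighbours are found for many genes.

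Genes on the opposite strand were examined next, because names with an opposite-strand exon held 78.4% ± 1.40 (SD, n = 3) of all gene-assigned counts. At HMGA2 the antisense gene collected far more counts than HMGA2 itself. HMGA2-AS1, listed in the tables as LOC100129940, received 146, 279 and 90 counts against 16, 9 and 5 for HMGA2. Its level was 424 ± 190 CPM, or 70.4 ± 31.5 CPM per kb of its 6.03 kb of exon, against 1.60 ± 0.69 CPM per kb for HMGA2 (SD, n = 3 each), and the values did not overlap in any library. HMGA2-AS1 runs from 65851340 to 65882167 on the minus strand of chromosome 12, entirely inside the HMGA2 gene. Only 384 bp of exon are shared, none of it with the main HMGA2 transcript, so most of its exons face HMGA2 introns. It varied between libraries, with 334, 643 and 297 CPM and an adjusted p of 4.06e-13 in edgeR's fit, and was highest in replicate 2, where HMGA2 was not. RPSAP52, a transcribed pseudogene whose 5' end lies opposite the start of HMGA2, had no count in any library, and the tables have no name matching AC090673.2, also annotated there as antisense.

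IGF2BP3 showed the reverse arrangement. MALSU1, a mitochondrial ribosome assembly factor on the plus strand, runs into the end of IGF2BP3 and shares 1521 bp of exon with it, from 23310209 to 23311729. That stretch is 70.6% of the 3' UTR of the main IGF2BP3 transcript and 17.9% of its merged exons. MALSU1 received 3, 4 and 0 counts against 51, 74 and 25 for IGF2BP3, each over the whole gene. How many of these fell in the shared stretch is not known from gene totals. Which strand the reads came from was not tested. The let-7 match of IGF2BP3, shown above, lies outside the shared stretch.

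IGF2BP2-AS1 received 6, 14 and 3 counts, or 13.7, 32.3 and 9.89 CPM, against 1, 1 and 3 for IGF2BP2. It lies within the IGF2BP2 gene on the plus strand and shares no exon with it. The antisense gene was higher in replicates 1 and 2, and both had 3 counts in replicate 3. LIN28B-AS1, listed as LINC00577, shares 67 bp of exon with LIN28B and had no count in any library. For IGF2BP1, 113 bp of exon face 2 antisense genes, AC091133.2 and AC091133.3, for which the tables have no matching name. The same holds for small genes that lie opposite introns, RNU6-1106P in LIN28B, RF00017 in IGF2BP1, and SNORD65C, AC021876.1 and RNU7-143P in IGF2BP3.

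**Figure D5:**
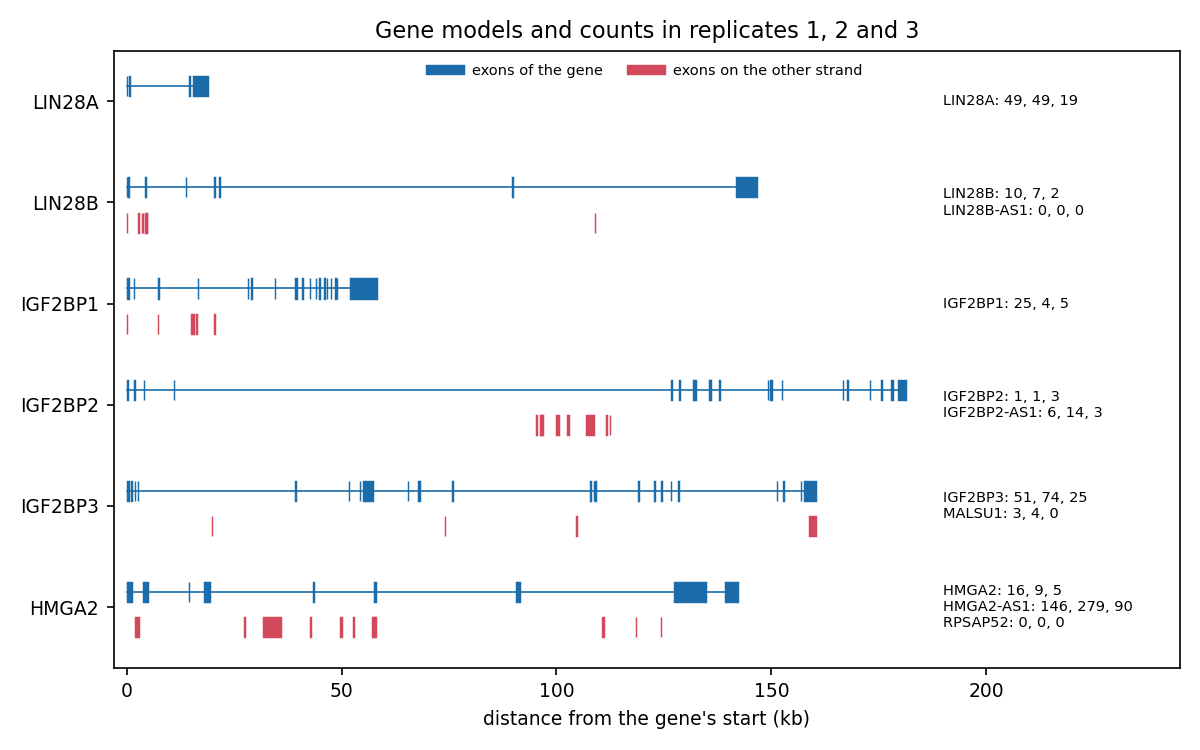
Blue blocks are merged exons of each gene and red blocks exons on the other strand, by distance from the gene's start in kb, with the counts of replicates 1, 2 and 3 beside them. HMGA2-AS1 has 146, 279 and 90 counts inside HMGA2, and MALSU1 overlaps the end of IGF2BP3 with 3, 4 and 0.

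Genes of the machinery that makes and destroys let-7 had low counts under their names, which need not measure their mRNAs. Of 18 processing and decay genes, 17 had a count and 12 had one in every library, and the median level was 12.5 CPM. Over all 26485 names, the background for this list and those below, 14482 had a count and 7738 had one in every library. By CPM, which is not corrected for length, the highest were HNRNPA1, an RNA-binding protein known to act on let-7a precursors, at 72.0 ± 2.47 CPM, XPO5, the exporter of precursor hairpins, at 53.7 ± 32.7 CPM, and PRKRA, a partner of DICER1, at 53.4 ± 5.51 CPM (SD, n = 3 each). XPO5 had 34, 29 and 5 counts and was low in replicate 3. The uridylyltransferase TUT4, which LIN28A recruits and the tables list as ZCCHC11, had 10, 18 and 10 counts, and its relative TUT7 (ZCCHC6) had 5, 9 and 3. DIS3L2, the exonuclease that degrades the uridylated precursors, had none, which allows up to 6.86, 6.92 and 9.89 CPM in replicates 1, 2 and 3. Of the 4 genes of this list that reached the minimum, 0 were called by edgeR's fit, where 45.8% of all tested genes were; 0 had an unadjusted p under 0.05, and 0 were called with DESeq2 size factors.

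The let-7 hairpins themselves, 12 names with MIR98, had no count in any library. Of the 3 host genes listed, MIR99AHG had no count. MIRLET7BHG had 18, 23 and 4 counts. MIRLET7DHG had 565, 652 and 442 counts, or 1417 ± 111 CPM (SD, n = 3), with an adjusted p of 0.0502 in edgeR's fit (1 call with DESeq2 size factors), and it was the one gene of the list that reached the minimum. It was matched through a RefSeq synonym to LINC02603, on the minus strand of chromosome 9 from 94176602 to 94204568. The hairpin of MIRLET7D lies inside that span on the plus strand, and 85.7% of the LINC02603 exons face exons of another non-coding gene on that strand. So this name is annotated opposite to the let-7 hairpin it is called after.

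Among 25 other known let-7 targets, 18 had a count and 11 had one in every library, with a median of 3.81 CPM. IGF1R had 4, 6 and 10 counts and CDK6 had 9, 5 and 5. MYC had 2, 0 and 2 counts, HMGA1 had 5, 1 and 2, and MYCN, HRAS and TRIM71 had none.

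Protein partners of the IGF2BP family each had at least 1 count, but ELAVL1 had 0, 1 and 0 and FMR1 had 1, 2 and 0. Of 8 partners, 5 had a count in every library and the median was 6.90 CPM. HNRNPU, a nuclear RNA-binding protein, had 29, 18 and 41 counts and YBX1, a cold-shock protein, had 31, 22 and 25. SYNCRIP, which joins them in the complex that shields the MYC coding region, had 6, 8 and 12. HNRNPU varied between libraries (adjusted p = 0.000245, edgeR's fit) and YBX1 did not pass (adjusted p = 0.32, edgeR's fit). So 1 of the 2 tested partners was called, where 45.8% of all tested genes were. HNRNPU shares 3502 bp of exon with COX20 on the other strand, which had 2285, 3410 and 1806 counts.

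Client RNAs of the family and other oncofetal genes received few counts. Of 10 clients, 6 had a count and 1 had one in every library: HDGF, a growth factor gene, with 27, 16 and 18 counts, or 52.6 ± 13.7 CPM (SD, n = 3). BTRC had 0, 4 and 2 and MAPK4 had 0, 4 and 1. ACTB, the beta-actin gene that nearly all cells express highly, had 1, 0 and 1. IGF2, H19 and CD44 had none. Of 11 other oncofetal genes, CEACAM5 (6, 1 and 1 counts) and PLAG1 (0, 3 and 8) were the 2 with a count, and AFP, GPC3, DLK1 and SALL4 were among the 9 without. HDGF was the one gene of both lists to reach the minimum and was not called by edgeR's fit (adjusted p = 0.293). With 1 tested gene, the lists say nothing of calls against the 45.8% over all tested genes. All 6 of the genes followed here had a count in every library, as did 29.2% of all names. The share was 9.09% for the other oncofetal genes, 10% for the clients and 13.3% for the let-7 primary transcripts. It was 44% for the other let-7 targets, 62.5% for the IGF2BP partners and 66.7% for the processing and decay genes.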

How the data were processed

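Libraries were made with a strand-preserving kit from total RNA of HEK293 cells after removal of ribosomal RNA, per the labels' protocols. The deposited tables hold raw counts per gene symbol, 1 table per replicate; the tools named in the submitters' processing notes are HTSeq 0.11.2, TopHat2 with the version 2.2.5 and Trimmomatic, with the build hg38. The annotation used for counting, and whether it took account of strand, were not given in those sources. The counter's summary lines, 97.5% to 98.2% of records, entered neither library sizes nor tests.

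CPM was computed per TMM effective library size (edgeR 4.0.16, R 4.3.3). The test of variation took genes reaching 10 counts in each library and an edgeR Poisson generalised linear model with a dispersion of 0 and 1 common mean; p-values came from the chi-square distribution of its deviance, with Benjamini-Hochberg adjustment over all tested genes. Paralog ratios used a prior of 0.5 CPM. In simulated counts, 100% of 64 genes changed 4-fold, 74.6% of 67 changed 2-fold, 27.9% of 61 changed 1.5-fold and 0.143% of 2790 unchanged genes were called.

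Names were matched to GENCODE release 29 (GRCh38), 96.2% of 26485, directly or through RefSeq symbols. It stands in for the annotation used to count. The main transcript was the APPRIS principal one, or the longest. A 3' UTR of like length is one of 0.8 to 1.25 times the length. The genes and lists were chosen with earlier results of these data known. Named beside the 6 genes were their opposite-strand genes, the 3 highest of each list by CPM, genes called in the test and the 3 nearest in pattern; further list members were named after their values were seen. Alternatives were DESeq2 1.42.0 size factors, total counts, other count minimums, a Pearson statistic, removal of TSIX, other lengths and priors, and leaving out each replicate. Protein sequences were not used here. Some list and marker genes are not reported here.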

Additional observations from a re-analysis of the deposited data

How the results depend on the processing

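Scaling by DESeq2 size factors or total counts, or removing TSIX, moved no level of the 6 genes by more than its SD. Leaving out a replicate stayed within the SD too, but that SD is widened by the same library: IGF2BP1 fell from 3.03 to 1.37 CPM per kb without replicate 1, and IGF2BP2 from 1.02 to 0.474 without replicate 3. Lengths moved levels beyond the SD. Per kb of coding sequence the levels were 153 CPM for LIN28A, 18.6 for LIN28B, 16.0 for IGF2BP1, 2.59 for IGF2BP2, 70.9 for IGF2BP3 and 31.1 for HMGA2, and per kb of the longest transcript IGF2BP3 was at 28.98 and HMGA2 at 3.04, because these lengths are shorter. The log2 ratio of LIN28A over LIN28B was 2.73 with no length correction. No ratio of paralogs changed sign on average under another prior, length or set of libraries, but without 1 replicate the mean log2 ratio of IGF2BP1 over IGF2BP2 ran from 0.30 to 2.13, IGF2BP3 over IGF2BP1 from 1.75 to 3.31 and IGF2BP3 over IGF2BP2 from 3.36 to 4.81. Without each replicate in turn, 263 to 1093 genes were called, fewest without replicate 2 (263 of 2784 tested), and 2914 of 14482 were called with no count minimum. The adjusted p of IGF2BP3 in edgeR's fit was 0.00553 to 0.397 when a replicate was left out, highest without replicate 2, and 0.0686 with total counts; that of LIN28A was 0.0737 to 0.818 and never passed. No paired analysis was possible because the series has 1 group. Depth limits LIN28B, IGF2BP2 and HMGA2 most, with at most 16 counts in a library.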
